A study of Mus musculus with 224 samples.

Results

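The Ifi200 genes form a family of interferon-inducible genes clustered on mouse chromosome 1, and 6 of them, Mnda, Mndal, Ifi203, Ifi204, Ifi205 and Ifi207, are described here across 3 tissues and 3 inbred strains. They were taken by gene symbol, and the set was chosen with earlier results of these data known. Of these 6 genes the liver table held 4 among its 12611 genes (Mndal, Ifi203, Ifi204 and Ifi207). The soleus table held all 6 among 13637 genes and the visceral adipose table all 6 among 16542, and 17494 different genes occurred in the 3 tables together. Mnda and Ifi205 were not analysed here in liver.

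The study sequenced RNA from liver, from soleus, a leg muscle, and from visceral fat, and set mouse strains, diets and feeding times against each other. Mice were BALB/cJ, DBA/2J or C57Bl/6J, were fed HFD (a diet high in fat) or RC (regular chow), and are labelled day 5, 13 or 33. The labels were followed for the days, although the series' design text gives the last period as 13 days as well, so the length of the day 33 period is uncertain. Every combination of these labels, 18 in all, held 4 animals per tissue, hence 72 libraries per tissue and 24 per strain. The titles carry the same animal numbers in each tissue, so the tissues are taken to come from the same 72 animals and are not independent. C57Bl/6J is the strain from which the mouse reference genome derives, and RC is the control diet. The labels give neither the age nor the sex of the animals, and they name no transgene, deletion or drug in any group.

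The proteins of this family, also called PYHIN proteins, carry a HIN domain that binds DNA, and most also carry a pyrin domain that joins them to partner proteins. They are known as sensors of DNA and as regulators of transcription and growth in cells of the immune system, above all macrophages, where interferon raises their transcription. Ifi204 encodes the p204 protein, a DNA sensor of macrophages related to human IFI16. Ifi203 and Ifi205 encode the p203 and p205 proteins, and Mndal takes its name from its likeness to human MNDA, the myeloid cell nuclear differentiation antigen. Mnda is the symbol listed for the mouse gene that the GENCODE annotation calls Ifi211.

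All 6 genes lie on the minus strand of chromosome 1 (GRCm38), inside a block of 14 PYHIN genes that spans 681 kb (173350879 to 174031810). From low to high coordinates they are Ifi207 (173723427 to 173741747), Ifi204 (173747293 to 173766943), Mndal (173849126 to 173942491), Mnda (173896345 to 173913046), Ifi203 (173920407 to 173942672) and Ifi205 (174011998 to 174031810). The annotated span of Mndal overlaps Mnda and Ifi203 on the same strand, so reads over shared exons cannot be assigned by position. The family members also resemble each other in sequence. Of all 100-base windows of its annotated transcripts, Mnda shares 56.9% with another gene, mainly Ifi205, Ifi204 and Mndal, and Ifi205 shares 15% and Ifi204 10.7%. The shared part is 6.38% for Mndal, 2.84% for Ifi203 and 0.79% for Ifi207. Values of Mnda are therefore uncertain as a measure of that gene alone, and those of Ifi207 are the most specific.

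The sequences before the start sites are described because those at a start site of Mndal and of Ifi203 are close copies, as are those of Ifi207 and Mnda. RefSeq (GRCm38.p6) gave start sites for 5 of the 6 genes, and Ifi204 had no entry in the table used. Each line holds 250 bases upstream of a start site on the minus strand, written 5′ to 3′, for Mndal (chr1:173880188-173880437), Ifi203 (chr1:173942493-173942742), Ifi205 (chr1:174031756-174032005) and Ifi207 (chr1:173741810-173742059). Capitals mark GAAANNGAAA, the core of the interferon-stimulated response element bound by interferon-activated factors.
Mndal: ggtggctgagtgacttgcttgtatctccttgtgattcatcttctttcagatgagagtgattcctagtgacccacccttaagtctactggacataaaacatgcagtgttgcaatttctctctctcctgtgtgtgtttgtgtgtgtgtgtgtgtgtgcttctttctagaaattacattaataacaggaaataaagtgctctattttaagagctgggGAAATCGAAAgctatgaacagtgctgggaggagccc
Ifi203: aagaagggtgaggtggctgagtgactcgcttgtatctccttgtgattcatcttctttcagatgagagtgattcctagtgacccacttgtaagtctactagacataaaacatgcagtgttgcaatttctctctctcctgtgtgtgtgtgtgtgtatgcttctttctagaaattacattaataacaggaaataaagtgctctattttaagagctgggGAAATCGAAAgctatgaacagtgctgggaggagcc
Ifi205: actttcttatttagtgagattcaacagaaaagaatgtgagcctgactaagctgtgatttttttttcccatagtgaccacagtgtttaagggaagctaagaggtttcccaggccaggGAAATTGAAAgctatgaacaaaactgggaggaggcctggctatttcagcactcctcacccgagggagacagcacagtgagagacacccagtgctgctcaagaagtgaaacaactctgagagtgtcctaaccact
Ifi207: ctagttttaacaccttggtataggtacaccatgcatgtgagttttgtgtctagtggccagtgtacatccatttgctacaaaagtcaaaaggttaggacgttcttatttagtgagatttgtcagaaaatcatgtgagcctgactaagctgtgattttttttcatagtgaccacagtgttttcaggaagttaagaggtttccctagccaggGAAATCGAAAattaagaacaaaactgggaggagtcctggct
Searched on both strands, GAAANNGAAA was present in 974 of 32817 upstream windows of mouse genes (2.97%). For all 5 genes with an entry it was present upstream of at least 1 start site. The match lay 36 bases before the start in Mndal, 35 in Ifi203, 134 in Ifi205, 41 in Ifi207 and 37 in Mnda. The letters at these matches were GAAATCGAAA in Mndal, Ifi203 and Ifi207 and GAAATTGAAA in Ifi205 and Mnda. Mndal and Ifi203 each had another start site, whose window is not printed. That of Ifi203 held no match, and that of Mndal held TTTCTCTTTC, a match on the other strand, 54 bases before its start. The share over all genes counts single windows, while a gene is counted here by any of its windows. A TTCNNNGAA match, the form of the interferon-gamma activated site, was in none of these windows and in 2302 of 32817 windows (7.01%). Other PYHIN genes of the cluster held GAAATCGAAA too, so it was not particular to the members. It lay 40 bases before the start in Ifi206, 58 in Ifi208, 73 in Ifi213 and 79 in Ifi214. The windows of Aim2, Ifi202b and Ifi209 held no GAAANNGAAA match. The printed Mndal and Ifi203 windows were identical at 234 of 262 aligned positions (89.3%), and those of Ifi207 and Mnda at 85.1% of aligned positions. The remaining pairs of windows of different members, those not printed included, were 49.7% to 59.3% identical. A match of letters is a description of the C57BL/6J reference sequence and was not tested for function.

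Levels are the deposited log2 CPM, the log2 of the reads of a gene scaled to the size of its library by the authors. The summed reads of a library were 18078488 to 31991289 for liver, 19945355 to 33370016 for soleus and 19783483 to 46795074 for adipose tissue, and 0 reads stood at -6.63, -3.74 and -3.81 on this scale. Errors beside log2 differences are standard errors, adjusted p values come from limma over all genes of a tissue, and a gene was called when its adjusted p was below 0.05. The tables were normalised separately, so levels across tissues are set side by side only as a description. In whole tissue, fewer cells of a type and less RNA per cell cannot be told apart. Reads of all strains were mapped to the C57BL/6J genome, so differences of sequence or gene copy enter a strain difference and cannot be told apart from a difference in RNA. The libraries of a group come from animals with different numbers, and the p values measure the spread between these animals only.

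Some libraries stood apart before any result. In 2 adipose libraries of BALB/cJ mice on HFD, of day 5 and day 33, the highest gene was Ins2 (insulin) at 17.81 and 18.39, followed by the pancreatic islet genes Ins1, Gcg, Iapp and Chga. In the other 70 adipose libraries Ins2 had a median of -3.81 and a highest value of 8.19. The adipocyte gene Adipoq stood at 2.80 and 3.61 in these 2 libraries and at 9.12 to 12.65 in the others, so they went against their tissue label. They are called islet-led, and adipose differences that involve BALB/cJ are given with and without them. Leaving them out changes the error of a DBA/2J minus C57Bl/6J difference but not its value. Adipose libraries also fell into 2 sets by 7 B cell markers, with a mean log2 CPM of 0.55 to 4.15 in 32 libraries and of 6.62 to 9.04 in 40. The high set held 15 of 24 BALB/cJ, 7 of 24 DBA/2J and 18 of 24 C57Bl/6J libraries. In soleus 21 libraries were set apart: 1 C57Bl/6J RC library of day 33, chosen from earlier results of these data, and all those whose B cell marker level was more than 2 above the tissue median. They include every BALB/cJ HFD library of day 5.

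**Figure D1:**
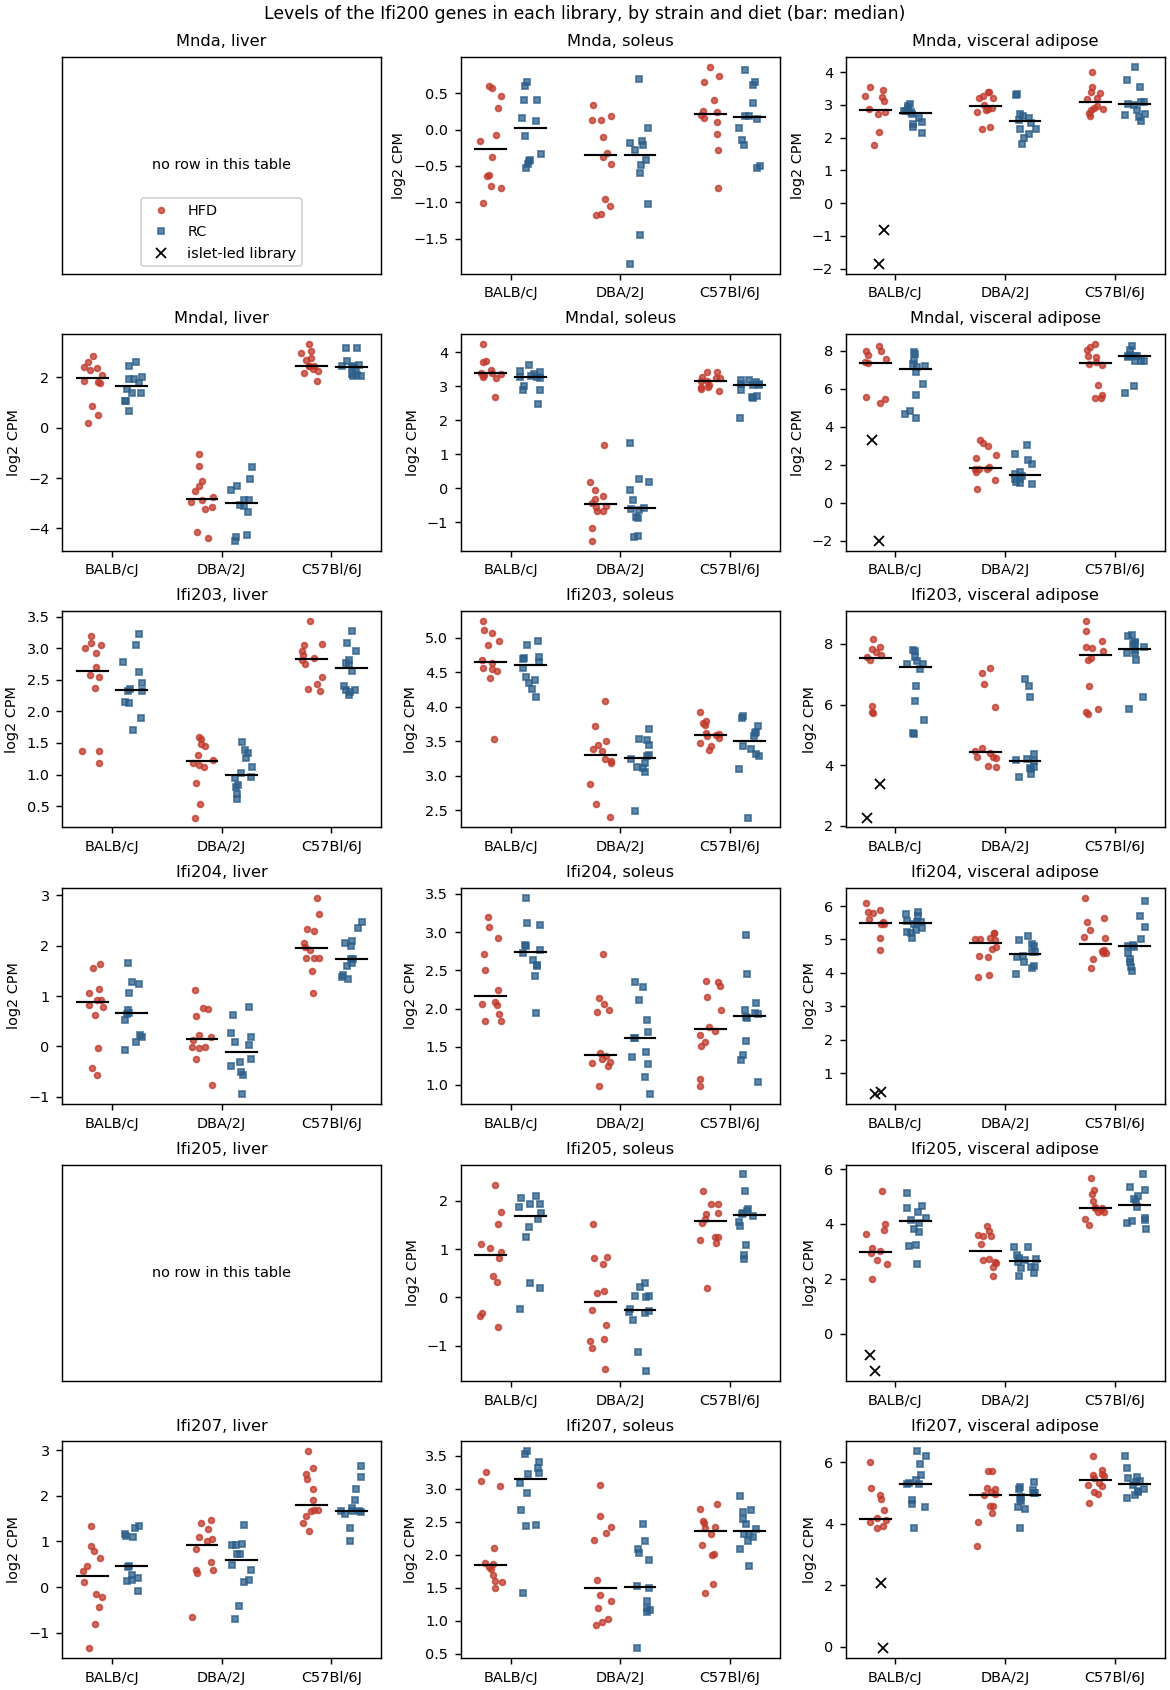
Level of each Ifi200 gene (rows) in each library of liver, soleus and visceral adipose tissue (columns), in log2 CPM. Points are single libraries of mice on HFD (circles) or RC (squares) in each strain, bars are medians of 12 libraries, and crosses are the 2 islet-led libraries, which the medians include. Mndal of DBA/2J lies below both other strains in all 3 tissues, with liver values between -4.48 and -1.03, except for the islet-led adipose libraries at -2.00 and 3.29.

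Which Ifi200 genes differ between strains was asked first, and Mndal showed the widest differences. It was lower in all 3 tissues of DBA/2J relative to C57Bl/6J. In liver Mndal had a lowest, median and highest level of 0.19, 1.83 and 2.86 in BALB/cJ, of -4.48, -2.88 and -1.03 in DBA/2J, and of 1.87, 2.44 and 3.33 in C57Bl/6J. The DBA/2J libraries held 1 to 10 Mndal reads each, against 98 to 286 in C57Bl/6J libraries, and no value of DBA/2J overlapped with either other strain.
The DBA/2J minus C57Bl/6J difference was -5.40 ± 0.19 (adjusted p = 5.1e-34), a 42.3-fold lower level. Summed over libraries, Mndal had 86 reads in DBA/2J and 3714 reads in C57Bl/6J. The summed level was 39.4-fold lower in DBA/2J (95% exact interval 31.8 to 49.3, which covers counting error only). BALB/cJ was 24.6-fold above DBA/2J (4.62 ± 0.19, adjusted p = 2.8e-30) and 1.72-fold below C57Bl/6J (-0.78 ± 0.19, adjusted p = 0.000305). Strain accounted for 92% of the variance of Mndal in liver, against a median of 18.5% over all tested genes.

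In soleus Mndal gave the same order of DBA/2J below the other strains at a smaller distance. Its lowest, median and highest levels were 2.49, 3.33 and 4.24 in BALB/cJ, -1.53, -0.52 and 1.34 in DBA/2J, and 2.08, 3.05 and 3.43 in C57Bl/6J. All 24 DBA/2J libraries were below all others, and the BALB/cJ and C57Bl/6J ranges overlapped. DBA/2J was 10.7-fold below C57Bl/6J (-3.41 ± 0.13, adjusted p = 5.2e-32), and BALB/cJ was 13.0-fold above DBA/2J (3.70 ± 0.13, adjusted p = 1.2e-33). BALB/cJ and C57Bl/6J differed by 0.29 ± 0.13, which did not pass (adjusted p = 0.052).

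Visceral adipose tissue had the highest Mndal median of the 3 tissues in each strain, although the DBA/2J ranges of adipose tissue and soleus overlapped. Without the islet-led libraries the lowest, median and highest levels were 4.48, 7.26 and 8.26 in BALB/cJ (22 libraries), 0.75, 1.78 and 3.29 in DBA/2J, and 5.52, 7.59 and 8.37 in C57Bl/6J. The islet-led libraries stood at -2.00 and 3.29. Apart from these, DBA/2J again did not overlap with either strain. It was 41.5-fold below C57Bl/6J (-5.38 ± 0.42, adjusted p = 2.2e-16; adjusted p = 1.3e-24 without the islet-led libraries). BALB/cJ was 20.4-fold above DBA/2J (4.35 ± 0.42, adjusted p = 1.0e-12), and more so without the islet-led libraries (4.91 ± 0.28, adjusted p = 4.5e-22). BALB/cJ minus C57Bl/6J was -1.02 ± 0.42 and did not pass (adjusted p = 0.0717), nor did it without them (-0.47 ± 0.28, adjusted p = 0.243).

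B cell markers moved with Mndal in adipose tissue, so its levels are also given within each marker set. Among libraries high in B cell markers the Mndal median was 7.51 in BALB/cJ, 2.99 in DBA/2J and 7.72 in C57Bl/6J. Among those low in them it was 5.23 in BALB/cJ, 1.54 in DBA/2J and 5.72 in C57Bl/6J. Each strain was thus higher in the high set, and DBA/2J was lower than the others in both sets. DBA/2J minus C57Bl/6J was -5.03 ± 0.21 within the high set (adjusted p = 5.1e-21) and -4.30 ± 0.21 within the low set (adjusted p = 8.2e-15). These fits held strain by diet means plus day, on 40 libraries of the high set and on the 30 of the low set that were not islet-led. With the range of animal numbers as a covariate over all 72 libraries it was -4.42 ± 0.53 (adjusted p = 1.3e-09).

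Ifi203, whose upstream sequence resembles that of Mndal and whose span overlaps it, was also lowest in DBA/2J in liver and adipose tissue, but by less. In liver its lowest, median and highest levels were 1.18, 2.49 and 3.22 in BALB/cJ, 0.32, 1.14 and 1.60 in DBA/2J, and 2.26, 2.76 and 3.44 in C57Bl/6J. DBA/2J and C57Bl/6J did not overlap, while BALB/cJ overlapped both. DBA/2J minus C57Bl/6J was -1.63 ± 0.10 (3.09-fold lower, adjusted p = 8.4e-22) and BALB/cJ minus DBA/2J was 1.34 ± 0.10 (adjusted p = 7.8e-18). BALB/cJ minus C57Bl/6J was -0.29 ± 0.10 (adjusted p = 0.0104), a call that ended with only RC groups (-0.24, adjusted p = 0.152), with the range of animal numbers as a covariate (-0.24, adjusted p = 0.0567) and with leukocyte markers as covariates (-0.15, adjusted p = 0.159).

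In soleus Ifi203 stood out in BALB/cJ instead. Its lowest, median and highest levels were 3.54, 4.64 and 5.25 in BALB/cJ, 2.41, 3.26 and 4.08 in DBA/2J, and 2.39, 3.58 and 3.92 in C57Bl/6J. Of the 24 BALB/cJ libraries 23 were above all of C57Bl/6J and 23 above all of DBA/2J. BALB/cJ was 2.14-fold above C57Bl/6J (1.10 ± 0.09, adjusted p = 6.1e-17) and 2.59-fold above DBA/2J (1.37 ± 0.09, adjusted p = 4.4e-21). The DBA/2J minus C57Bl/6J difference was -0.28 ± 0.09 (adjusted p = 0.00626). That difference was -0.07 (adjusted p = 0.641) when the range of animal numbers was a covariate and -0.19 (adjusted p = 0.238) with only RC groups.

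In adipose tissue without the islet-led libraries Ifi203 had a lowest, median and highest level of 5.02, 7.39 and 8.15 in BALB/cJ, 3.61, 4.27 and 7.19 in DBA/2J, and 5.70, 7.77 and 8.77 in C57Bl/6J. DBA/2J minus C57Bl/6J was -2.60 ± 0.35 (6.07-fold lower, adjusted p = 2.2e-08; adjusted p = 4.2e-11 without the islet-led libraries). BALB/cJ minus DBA/2J was 1.73 ± 0.35 (adjusted p = 1.0e-04), or 2.11 ± 0.29 without them (adjusted p = 4.8e-08). BALB/cJ minus C57Bl/6J was -0.87 ± 0.35 (adjusted p = 0.066), or -0.49 ± 0.29 without them (adjusted p = 0.248). The DBA/2J libraries split by B cell markers without overlap, with Ifi203 at 5.91 to 7.19 in the 7 high libraries and 3.61 to 4.57 in the 17 low ones. Within the sets DBA/2J minus C57Bl/6J was -1.27 ± 0.17 (high, adjusted p = 2.8e-07) and -1.89 ± 0.14 (low, adjusted p = 1.1e-10), so the pooled value of -2.60 was larger than that of either set. BALB/cJ minus DBA/2J was likewise 0.89 ± 0.18 within the high set (adjusted p = 0.000328) and 1.49 ± 0.14 within the low set (adjusted p = 3.4e-09). The part of B cells in this difference was not tested beyond these values.

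Ifi204, the gene of the p204 DNA sensor, was highest in C57Bl/6J in liver and in BALB/cJ in soleus. In liver its lowest, median and highest levels were -0.56, 0.76 and 1.66 in BALB/cJ, -0.95, 0.05 and 1.12 in DBA/2J, and 1.06, 1.84 and 2.96 in C57Bl/6J. Of 24 DBA/2J libraries 23 were below all of C57Bl/6J. The difference of DBA/2J minus C57Bl/6J was -1.84 ± 0.13 (adjusted p = 6.2e-19), BALB/cJ minus C57Bl/6J was -1.21 ± 0.13 (adjusted p = 5.8e-12) and BALB/cJ minus DBA/2J was 0.63 ± 0.13 (adjusted p = 6.0e-05). In soleus its lowest, median and highest levels were 1.84, 2.60 and 3.45 in BALB/cJ, 0.88, 1.52 and 2.72 in DBA/2J, and 0.99, 1.88 and 2.97 in C57Bl/6J. The 3 ranges overlapped. BALB/cJ was above C57Bl/6J by 0.73 ± 0.12 (adjusted p = 6.7e-07) and above DBA/2J by 0.92 ± 0.12 (adjusted p = 3.1e-09), while DBA/2J minus C57Bl/6J was -0.18 ± 0.12 (adjusted p = 0.212).

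In adipose tissue without the islet-led libraries Ifi204 had a lowest, median and highest level of 4.69, 5.52 and 6.09 in BALB/cJ, 3.89, 4.68 and 5.20 in DBA/2J, and 4.07, 4.79 and 6.26 in C57Bl/6J. Over all 72 libraries no strain pair passed, with the largest difference at 0.43 ± 0.27 (BALB/cJ minus DBA/2J, adjusted p = 0.199). Without the islet-led libraries BALB/cJ was above C57Bl/6J by 0.57 ± 0.14 (adjusted p = 0.00104) and above DBA/2J by 0.86 ± 0.14 (adjusted p = 1.1e-06). BALB/cJ was thus called below C57Bl/6J in liver and above it in soleus; the difference between tissues was not tested. In adipose tissue, Ifi204 was for DBA/2J minus C57Bl/6J at -0.03 in the set high in B cell markers (adjusted p = 0.912) and at -1.11 ± 0.18 in the low set (adjusted p = 4.6e-05). Within C57Bl/6J the Ifi204 median was 4.64 among libraries high in B cell markers and 5.68 among those low in them. The other strains differed less between the sets, at 5.53 (high) and 5.35 (low) in BALB/cJ and 4.73 (high) and 4.63 (low) in DBA/2J. Within the high set BALB/cJ was above C57Bl/6J by 0.913 ± 0.125 (adjusted p = 3.1e-07). Within the low set the BALB/cJ median lay below that of C57Bl/6J, so the place of BALB/cJ above C57Bl/6J did not hold in both sets.

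Ifi207, the gene with the fewest windows shared with others, was below C57Bl/6J in both other strains in liver. Its lowest, median and highest levels there were -1.34, 0.40 and 1.34 in BALB/cJ, -0.71, 0.72 and 1.47 in DBA/2J, and 1.01, 1.68 and 2.97 in C57Bl/6J. The top of each lower strain overlapped the bottom of C57Bl/6J. BALB/cJ minus C57Bl/6J was -1.49 ± 0.14 (adjusted p = 2.0e-14) and DBA/2J minus C57Bl/6J was -1.27 ± 0.14 (adjusted p = 6.9e-12), while BALB/cJ minus DBA/2J was -0.23 ± 0.14 (adjusted p = 0.167). The BALB/cJ minus DBA/2J difference was called in 1 of 11 other settings, with only HFD groups (-0.62 ± 0.19, adjusted p = 0.00962). In soleus its lowest, median and highest levels were 1.41, 2.57 and 3.57 in BALB/cJ, 0.58, 1.51 and 3.06 in DBA/2J, and 1.42, 2.35 and 2.90 in C57Bl/6J. DBA/2J was the low strain there, by -0.64 ± 0.14 against C57Bl/6J (adjusted p = 0.000149), and BALB/cJ minus DBA/2J was 0.85 ± 0.14 (adjusted p = 8.7e-07). With only HFD groups these were -0.48 ± 0.20 (adjusted p = 0.0581) and 0.35 ± 0.20 (adjusted p = 0.164). The BALB/cJ minus C57Bl/6J difference was 0.22 ± 0.14 (adjusted p = 0.202), and 0.55 ± 0.20 with only RC groups (adjusted p = 0.0200).

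In adipose tissue without the islet-led libraries Ifi207 had a lowest, median and highest level of 3.87, 4.88 and 6.36 in BALB/cJ, 3.28, 4.95 and 5.73 in DBA/2J, and 4.69, 5.35 and 6.21 in C57Bl/6J. Both strains were a little below C57Bl/6J, by -0.75 ± 0.21 in BALB/cJ (adjusted p = 0.00594; -0.48 ± 0.14 without the islet-led libraries, adjusted p = 0.00614) and by -0.55 ± 0.21 in DBA/2J (adjusted p = 0.0283). BALB/cJ minus DBA/2J was -0.20 ± 0.21 (adjusted p = 0.448), or 0.07 ± 0.14 without the islet-led libraries (adjusted p = 0.684). The DBA/2J difference from C57Bl/6J was -0.03 (adjusted p = 0.949) with the range of animal numbers as a covariate. That of BALB/cJ was -0.07 (adjusted p = 0.918) with only RC groups and -0.14 (adjusted p = 0.473) with leukocyte markers as covariates. Ifi207 was lower among libraries high in B cell markers, with medians of 4.63 and 5.58 (high and low set) in BALB/cJ, 4.49 and 5.05 in DBA/2J, and 5.29 and 5.79 in C57Bl/6J.

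Ifi205, the gene of the p205 protein, was highest in C57Bl/6J in both tissues that measured it. In soleus its lowest, median and highest levels were -0.62, 1.17 and 2.33 in BALB/cJ, -1.53, -0.25 and 1.53 in DBA/2J, and 0.20, 1.65 and 2.55 in C57Bl/6J. Of 24 DBA/2J libraries 18 were below all of C57Bl/6J. Its DBA/2J minus C57Bl/6J difference was -1.74 ± 0.19 (3.34-fold lower, adjusted p = 9.7e-12), BALB/cJ minus C57Bl/6J was -0.50 ± 0.19 (adjusted p = 0.0251) and BALB/cJ minus DBA/2J was 1.25 ± 0.19 (adjusted p = 1.2e-07). The BALB/cJ minus C57Bl/6J call ended with the range of animal numbers as a covariate (-0.37 ± 0.20, adjusted p = 0.132), with only RC groups (-0.26 ± 0.27, adjusted p = 0.447) and, at a value as large, without the 21 libraries set apart (-0.54 ± 0.26, adjusted p = 0.1). In adipose tissue without the islet-led libraries the levels were 2.01, 3.73 and 5.22 in BALB/cJ, 2.09, 2.71 and 3.93 in DBA/2J, and 3.83, 4.61 and 5.81 in C57Bl/6J. Here 23 of 24 DBA/2J libraries were below all of C57Bl/6J. DBA/2J minus C57Bl/6J was -1.83 ± 0.24 (3.55-fold lower, adjusted p = 1.5e-08). That of BALB/cJ minus C57Bl/6J was -1.41 ± 0.24 (adjusted p = 7.6e-06), or -1.08 ± 0.16 without the islet-led libraries (adjusted p = 3.3e-07), and it was -0.70 ± 0.34 and not called with only RC groups. BALB/cJ minus DBA/2J was 0.42 ± 0.24 (adjusted p = 0.159), and 0.75 ± 0.16 without the islet-led libraries (adjusted p = 0.00018).

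Mnda, the member with the most shared sequence, showed smaller differences than Mndal. In soleus its lowest, median and highest levels were -1.01, -0.12 and 0.65 in BALB/cJ, -1.85, -0.35 and 0.70 in DBA/2J, and -0.81, 0.19 and 0.86 in C57Bl/6J, with wide overlap. The DBA/2J minus C57Bl/6J value was -0.62 ± 0.14 (adjusted p = 0.000254), which was -0.36 (adjusted p = 0.109) with the range of animal numbers as a covariate. BALB/cJ minus DBA/2J was 0.35 ± 0.14 (adjusted p = 0.0384), and -0.012 with leukocyte markers as covariates. BALB/cJ minus C57Bl/6J was -0.27 ± 0.14 (adjusted p = 0.104). In adipose tissue without the islet-led libraries the levels were 1.78, 2.80 and 3.55 in BALB/cJ, 1.80, 2.74 and 3.39 in DBA/2J, and 2.5, 3.02 and 4.16 in C57Bl/6J. The ranges overlapped again. DBA/2J minus C57Bl/6J was -0.39 ± 0.24 (adjusted p = 0.174), and -0.39 ± 0.13 without the islet-led libraries (adjusted p = 0.0104). That of BALB/cJ minus C57Bl/6J was -0.69 ± 0.24 (adjusted p = 0.0319), a call that was lost without them (-0.33 ± 0.13, adjusted p = 0.0649). Within the low B cell set, Mnda was at -1.06 ± 0.19 for DBA/2J minus C57Bl/6J (adjusted p = 0.000115), and within the high set at 0.11 (adjusted p = 0.600).

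**Figure D2:**
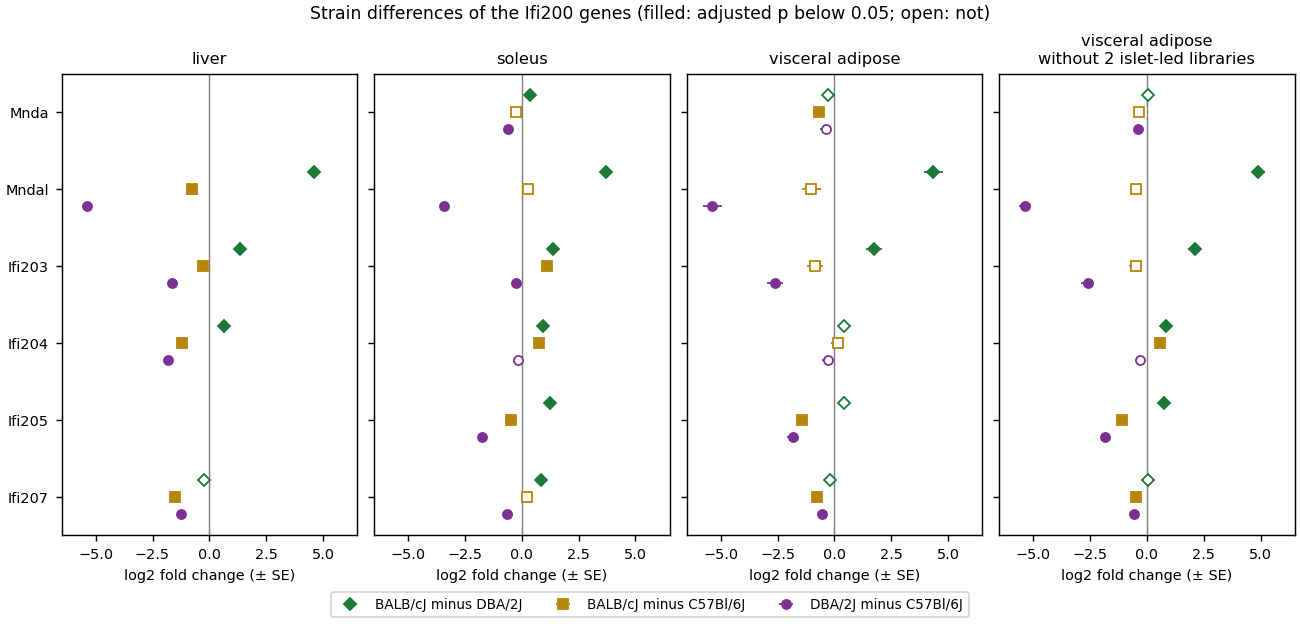
Log2 fold change with its standard error of each Ifi200 gene (rows) for 3 strain pairs in liver, soleus and visceral adipose tissue, and for adipose tissue also without the 2 islet-led libraries. Filled symbols passed an adjusted p below 0.05 and open ones did not; Mndal lies farthest from 0 wherever DBA/2J is one side of the pair, from -5.40 to 4.91.

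Counted by comparison, the calls of these genes stand beside large backgrounds, since many genes differed between strains. In liver all 4 were called for DBA/2J minus C57Bl/6J, all lower, where 57.4% of all genes were called and 28.8% were called lower. All 4 were called, all lower, for BALB/cJ minus C57Bl/6J (57.9% of all genes called, 29.3% lower), and 3 of 4, all higher, for BALB/cJ minus DBA/2J (48.8% called, 24.1% higher). In soleus 5 of 6 were lower for DBA/2J minus C57Bl/6J (46.9% of all genes called, 24% lower). For BALB/cJ minus C57Bl/6J 2 were higher and 1 lower (51.1% called, 24.6% higher and 26.5% lower), and all 6 were higher for BALB/cJ minus DBA/2J (50.7% called, 25.3% higher). In adipose tissue 4 of 6 were lower for DBA/2J minus C57Bl/6J (46.7% of all genes called, 22% lower), and 5 of 6 without the islet-led libraries (54.9% called, 25.1% lower). For BALB/cJ minus C57Bl/6J 3 of 6 were lower (22.1% called, 9.99% lower), and without those libraries 1 was higher and 2 were lower (22.3% called, 12.3% higher and 9.96% lower). For BALB/cJ minus DBA/2J 2 of 6 were higher (40.3% called, 18.9% higher), and 4 of 6 without them (50.6% called, 24.5% higher). With so few genes the shares say little, and those for BALB/cJ minus C57Bl/6J in soleus and BALB/cJ minus DBA/2J in adipose tissue over all libraries lay at or below the background. The median log2 difference over the 6 genes was -1.19 for DBA/2J minus C57Bl/6J in adipose tissue, against 0.05 over all genes, and -1.73 over the 4 in liver, against -0.01.

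Per length of transcript, the order of the genes differed between strains, and in adipose tissue also between the B cell marker sets. In adipose tissue of C57Bl/6J the median level in CPM per kilobase of merged exons was 53.2 for Mndal, 32.6 for Ifi203, 11.9 for Ifi207, 7.78 for Ifi204, 5.83 for Ifi205 and 4.54 for Mnda. In DBA/2J the order began with Ifi207 at 9.05 and Ifi204 at 7.18, went on with Mnda at 3.74, Ifi203 at 2.88 and Ifi205 at 1.56, and ended with Mndal at 0.945 CPM per kilobase. Each gene overlapped its neighbour in both orders. Since 18 of 24 C57Bl/6J libraries and 7 of 24 DBA/2J libraries were high in B cell markers, these orders also follow the sets. Among low libraries Ifi207 came first in all 3 strains, at 14 CPM per kilobase in BALB/cJ, 9.65 in DBA/2J and 16.1 in C57Bl/6J, where Mndal followed at 14.6. Among high libraries Mndal came first in BALB/cJ (50.1) and C57Bl/6J (58.1) and Ifi203 in DBA/2J (15.3). Mndal of DBA/2J was last in the low set (0.8) and last but one in the high set (2.19). In DBA/2J liver Mndal was last at 0.0374 CPM per kilobase, below every value of its neighbour Ifi204 (median 0.291). In C57Bl/6J liver it was first at 1.5, with Ifi203 and Ifi204 at 1.01 and Ifi207 at 0.934. In soleus Ifi203 led in BALB/cJ at 3.72 and in DBA/2J at 1.43, and Mndal led in C57Bl/6J at 2.27 CPM per kilobase.

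The other PYHIN genes of the cluster show where the members sit among their neighbours. Ifi202b, whose p202 protein lacks the pyrin domain and restrains the Aim2 DNA sensor, went the opposite way to Mndal. In liver it had 939 reads in BALB/cJ and 2024 in DBA/2J, against 22 reads in C57Bl/6J, where 14 of 24 libraries had none. Its summed level in liver was 1.61 CPM in BALB/cJ and 3.53 CPM in DBA/2J, against 0.035 CPM in C57Bl/6J. The level of DBA/2J was 35.1-fold that of C57Bl/6J in soleus (95% exact interval 28.3 to 44.1, counting error only) and 410-fold in adipose tissue (329 to 518). Ifi213 was nearly absent from both other strains in liver, with 12 reads in BALB/cJ and 11 in DBA/2J, against 705 in C57Bl/6J. In adipose tissue Ifi206 differed by -5.44 ± 0.65, Ifi208 by -2.92 ± 0.53, Ifi209 by -3.75 ± 0.68 and Ifi213 by -6.5 ± 0.51 for DBA/2J minus C57Bl/6J. Ifi214 was at -2.28 ± 0.85 (adjusted p = 0.0254) and Aim2 at -1.12 ± 0.50 (adjusted p = 0.0572, and 0.0306 without the islet-led libraries). The pseudogene Ifi203-ps, which shares windows with Ifi203, was at 0.24 ± 0.28 in adipose tissue and at -1.53 ± 0.22 in liver. Adipose libraries high in B cell markers were 7 of 24 in DBA/2J and 18 of 24 in C57Bl/6J. Within DBA/2J, Ifi209 had a median of 46.5 reads and a highest value of 3326, and Aim2 128 and 2442. The summed level of Ifi214 was 8.04 CPM in DBA/2J and 11.1 CPM in C57Bl/6J. The part of the marker sets in these adipose values was not tested. Of the other PYHIN genes measured, 3 of 4 in liver, 1 of 3 in soleus and 5 of 8 in adipose tissue were called lower for DBA/2J minus C57Bl/6J, and Ifi202b was called higher in each tissue. Of all genes, 28.8% in liver, 24% in soleus and 22% in adipose tissue were called lower in this comparison, so the soleus count is near that share.

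**Figure D3:**
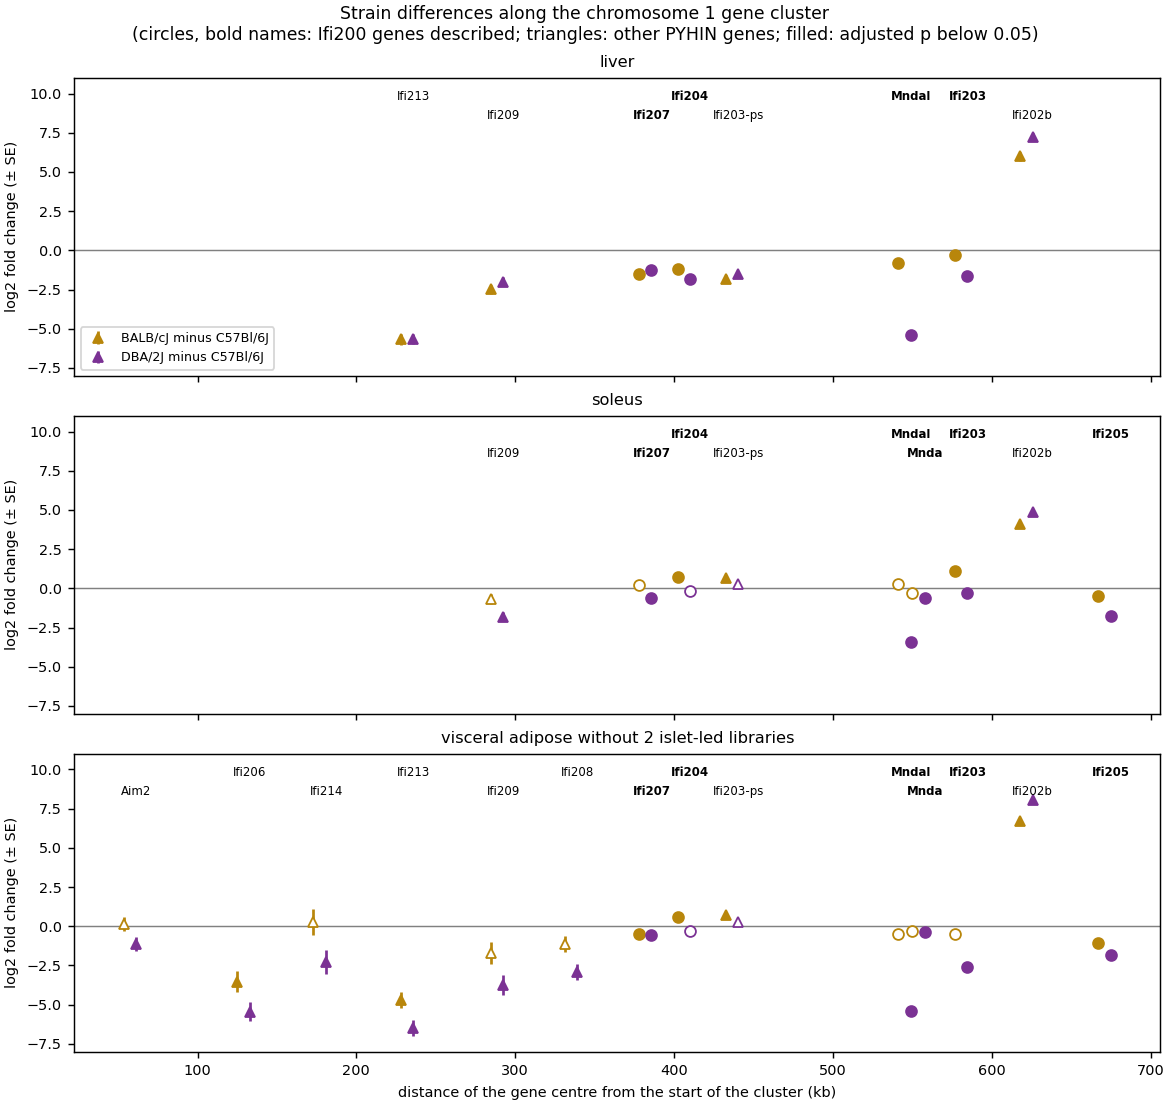
Log2 fold change with its standard error (vertical axis) of each measured PYHIN gene against the distance of its centre from the start of the cluster in kilobases (horizontal axis), for BALB/cJ and DBA/2J against C57Bl/6J. Circles with bold names are the Ifi200 genes described, triangles the other PYHIN genes, and filled symbols passed; for DBA/2J, Mndal lies at -5.40 in liver and Ifi202b at 7.22 in the same tissue.

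The 10 nearest measured genes outside the cluster were counted in the same way. In liver 8 were called for DBA/2J minus C57Bl/6J (57.4% of all genes), 3 higher and 5 lower. Apcs, the gene of serum amyloid P, was at 2.19 ± 0.16, Ackr1, a chemokine scavenger receptor, at 1.25 ± 0.13, and Fmn2, a formin, at 3.33 ± 0.17, while Dusp23, a phosphatase, was at -0.79 ± 0.06. In soleus 4 of 10 were called (1 higher and 3 lower, against 46.9% of all genes) and in adipose tissue 4 of 10 (3 higher and 1 lower, against 46.7%), shares below that of all genes.

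Whether diet changed these genes was asked within each strain and over all strains. None of the 4 genes was called in liver over all strains (21.2% of all genes were called), in BALB/cJ (14.8%), in DBA/2J (21.6%) or in C57Bl/6J (2.31%). The widest liver value was that of Ifi207 in BALB/cJ, with a lowest, median and highest level of -1.34, 0.23 and 1.33 on HFD and -0.09, 0.45 and 1.34 on RC (-0.50 ± 0.19, adjusted p = 0.0734). Mndal in DBA/2J liver had medians of -2.81 on HFD and -2.98 on RC (0.31 ± 0.26, adjusted p = 0.436). The diets overlapped in both.

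In soleus 1 gene, Ifi207 in BALB/cJ, was called for diet (in that strain 11.5% of all genes were called and 5.26% were called lower). On HFD its levels were 1.61, 1.78, 1.49 and 3.04 on day 5, 1.87, 1.82, 3.26 and 3.13 on day 13, and 1.70, 2.10, 1.59 and 1.86 on day 33. On RC they were 3.22, 3.41, 3.08 and 2.44 on day 5, 2.45, 1.41, 2.93 and 3.32 on day 13, and 3.57, 3.53, 3.24 and 2.68 on day 33. All 4 HFD values of day 33 lay below all 4 RC values of that day, while the diets overlapped on days 5 and 13. The HFD minus RC difference over days was -0.84 ± 0.20 (adjusted p = 0.00425), a 1.79-fold lower level on HFD. It was -0.85 ± 0.21 (adjusted p = 0.00577) with the range of animal numbers as a covariate. Without the 21 soleus libraries set apart, which leaves no BALB/cJ HFD library of day 5, it was -0.89 ± 0.28 and not called (adjusted p = 0.0573).
Ifi207 differed by 0.16 ± 0.20 in DBA/2J (adjusted p = 0.677) and by -0.16 ± 0.20 in C57Bl/6J (adjusted p = 0.725). The test of the difference between strains gave an adjusted p of 0.0354 (limma F test, 9.83% of all genes called), and 0.188 without those 21 libraries. No other member was called in soleus in any strain (8.73% of genes in DBA/2J, 5.75% in C57Bl/6J) or over all strains (17.4%). In BALB/cJ Ifi205 was at -0.60 ± 0.27 (adjusted p = 0.127) and Ifi204 at -0.37 ± 0.17 (adjusted p = 0.141) for HFD minus RC, with medians of 0.88 on HFD and 1.69 on RC for Ifi205 and of 2.17 on HFD and 2.75 on RC for Ifi204.

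In adipose tissue Ifi205 and Ifi207 of BALB/cJ were called for diet, both lower, at a background of 0.435% called and 0.212% lower, and both calls were lost without the islet-led libraries. Ifi205 had a lowest, median and highest level of -1.38, 2.98 and 5.22 on HFD and 2.54, 4.10 and 5.13 on RC (-1.41 ± 0.34, adjusted p = 0.0378). Ifi207 had -0.045, 4.15 and 6.01 on HFD and 3.87, 5.31 and 6.36 on RC (-1.31 ± 0.30, adjusted p = 0.0274). Without the 2 libraries the differences were -0.75 ± 0.23 (adjusted p = 0.309) and -0.77 ± 0.20 (adjusted p = 0.146). At that setting limma called 0 of 16541 genes for diet in BALB/cJ, with 1416 at an unadjusted p below the threshold. With leukocyte markers as covariates besides, Ifi207 was called again (-0.62 ± 0.16, adjusted p = 0.0483) and Ifi205 was not (-0.60 ± 0.20, adjusted p = 0.129). No member was called over all strains (2.67% of all genes, or 3.59% without the islet-led libraries), in DBA/2J (0.411%) or in C57Bl/6J (0.115%).

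**Figure D4:**
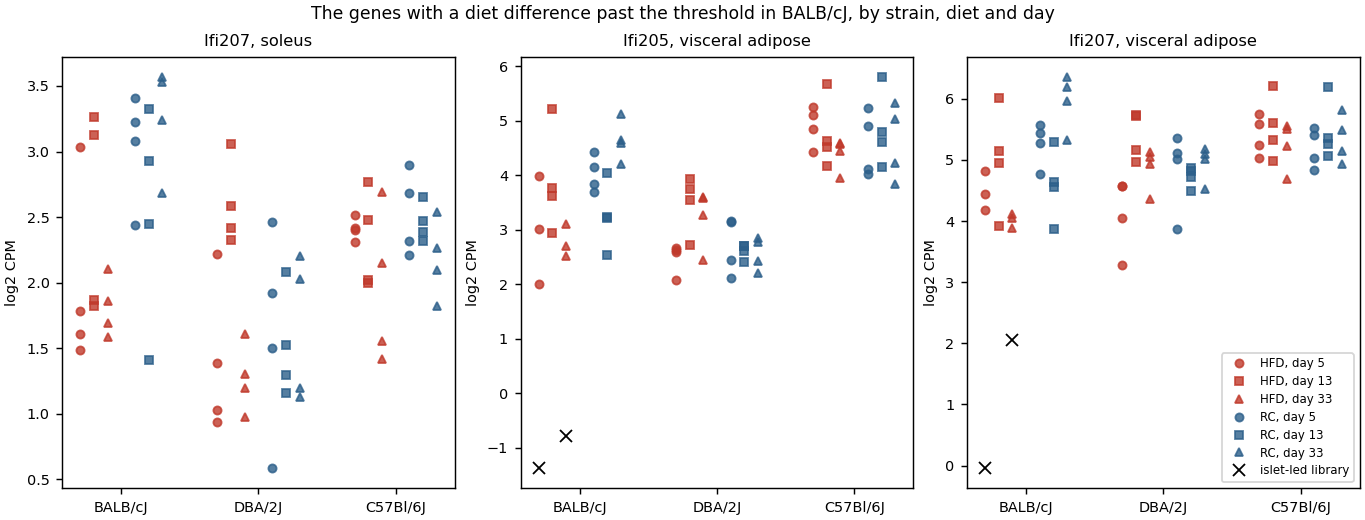
Level in log2 CPM of Ifi207 in soleus and of Ifi205 and Ifi207 in visceral adipose tissue, by strain, diet and day. Each symbol is a library of a mouse on HFD (left in each strain) or RC, its shape gives the day, and crosses are the 2 islet-led libraries; in BALB/cJ soleus the 4 HFD values of day 33 lie between 1.59 and 2.10 and those on RC between 2.68 and 3.57.

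Time on the diets left no call in these genes between day 33 and day 5, with 7.62% of all genes called in liver, 12.3% in soleus and 0.0423% in adipose tissue (0.121% without the islet-led libraries). The nearest to a call was Ifi203 in soleus, whose day 33 level was above that of day 5 by 0.24 ± 0.09 (adjusted p = 0.0583). Mndal in soleus was at 0.30 ± 0.13 (adjusted p = 0.115) and Ifi204 at -0.29 ± 0.12 (adjusted p = 0.109). With leukocyte markers as covariates Ifi203 (0.28 ± 0.09, adjusted p = 0.0262) and Mndal (0.37 ± 0.11, adjusted p = 0.0309) were called.

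Interferon-stimulated genes, a list that does not hold the members, were counted beside them. Of all genes, 22% were called lower and 24.6% higher for DBA/2J minus C57Bl/6J in adipose tissue, 24% lower and 22.9% higher in soleus, and 28.8% lower and 28.6% higher in liver. In adipose tissue 21 of 26 were called lower and 1 higher for DBA/2J minus C57Bl/6J, with a median of -0.84 against 0.05 over all genes. In soleus 18 of 23 were lower and 1 higher (median -0.58 against -0.01), and in liver 8 of 26 were lower and 6 higher (median 0.01 against -0.01), close to the shares of all genes. For BALB/cJ minus C57Bl/6J 18 of 26 were lower and 1 higher in liver (median -0.31; 29.3% of all genes lower and 28.6% higher). In soleus 12 of 23 were lower and 2 higher (26.5% and 24.6% of all genes). In adipose tissue 14 of 26 were lower (9.99% of all genes), and without the islet-led libraries 12 lower and 1 higher (9.96% and 12.3%). In soleus Ifih1, an RNA sensor, averaged 2.08 ± 0.31 in DBA/2J and 2.99 ± 0.19 in C57Bl/6J (SD, n = 24 each), and the antiviral gene Rsad2 1.29 ± 0.58 in DBA/2J and 2.83 ± 0.47 in C57Bl/6J. The apoptosis gene Xaf1 was the one called higher in DBA/2J, at 3.55 ± 0.19 against 1.87 ± 0.27 in C57Bl/6J. In liver, where the list was split, all 4 measured members were lower in DBA/2J.
Genes of interferon signalling in adipose tissue were called lower for DBA/2J minus C57Bl/6J in 11 of 16 cases, with none higher (1 higher without the islet-led libraries, where 29.8% of all genes were called higher). In soleus 7 of 15 were lower and 3 higher, and in liver 3 of 15 were lower and 4 higher. Of the genes of DNA sensing and the inflammasome 6 of 14 in adipose tissue were lower (10 of 14 without the islet-led libraries), and in soleus 4 of 11 were lower and 1 higher. In liver 3 of 11 were lower and 3 higher. The liver counts of both lists are near or below the shares of all genes given above. The adipose counts of these lists and of the interferon-stimulated genes pool both B cell marker sets. High in these markers were 7 of 24 DBA/2J and 18 of 24 C57Bl/6J adipose libraries, and the part of the sets in these counts was not tested.

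Markers of macrophages, the cells in which these genes are best known, also differed between strains. In soleus the summed level of 11 macrophage markers ranged from 67.3 to 146 CPM in BALB/cJ (median 99.5), from 28.8 to 93.2 in DBA/2J (58.5) and from 25.9 to 189 in C57Bl/6J (69.2). Of these 11 markers 10 were called higher and 1 lower for BALB/cJ minus DBA/2J (25.3% and 25.4% of all genes), and 7 higher for BALB/cJ minus C57Bl/6J (24.6% of all genes). In liver the sums were 80.5 to 297 CPM in BALB/cJ (154), 108 to 200 in DBA/2J (157) and 78.6 to 446 in C57Bl/6J (178), and 5 of 11 markers were called lower for DBA/2J minus C57Bl/6J (28.8% of all genes). No marker was at 0 in all libraries. With leukocyte marker levels as covariates the Mndal difference of DBA/2J minus C57Bl/6J was -5.34 ± 0.21 in liver, -3.26 ± 0.11 in soleus and -4.10 ± 0.26 in adipose tissue, each called. In soleus the BALB/cJ minus DBA/2J difference of Ifi207 was 0.48 ± 0.14 with these covariates (adjusted p = 0.00453), against 0.85 without them.

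In adipose tissue the summed B cell markers had a median of 2330 CPM in BALB/cJ (2550 without the islet-led libraries), 927 in DBA/2J and 2520 in C57Bl/6J. A sum weighs the most abundant markers most. By the mean log2 CPM of the markers, 17 of 24 DBA/2J libraries were in the low set (0.55 to 4.15). That set held 9 of 24 BALB/cJ libraries, the islet-led ones included, and 6 of 24 C57Bl/6J libraries. The T and NK cell markers had medians of 686 CPM in BALB/cJ (741 without them), 13.8 CPM in DBA/2J and 582 CPM in C57Bl/6J. Of 7 B cell markers 6 were called lower for DBA/2J minus C57Bl/6J, and of 9 T and NK cell markers 8 (22% of all genes). Mndal and Ifi203 were higher in the libraries rich in B cell markers in every strain, whereas Ifi205 and Ifi207 had lower medians there in every strain. For Ifi205 the medians of the high and low sets were 3.24 and 4.43 in BALB/cJ, 2.59 and 2.85 in DBA/2J, and 4.55 and 5.29 in C57Bl/6J. The origin of the lymphocyte RNA was not tested.

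**Figure D5:**
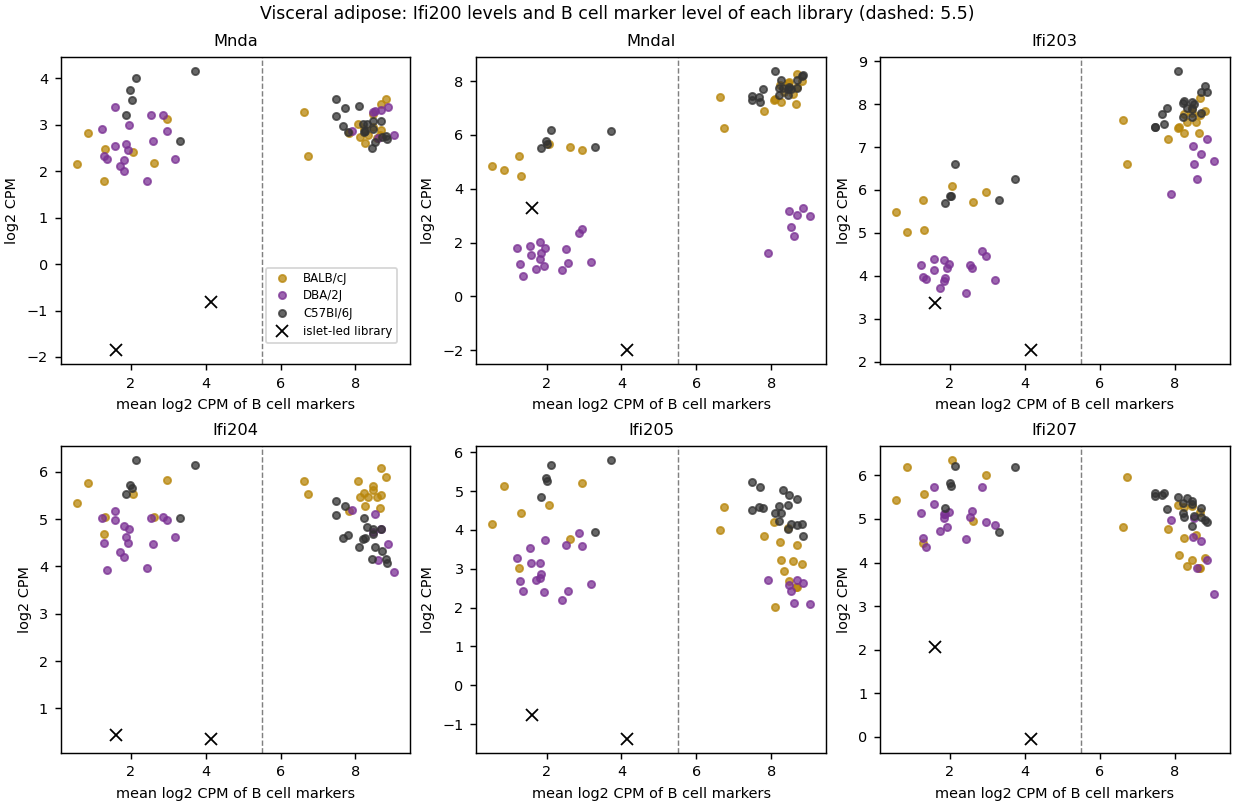
Level of each Ifi200 gene (vertical axis, log2 CPM) against the mean log2 CPM of 7 B cell markers (horizontal axis) in the 72 visceral adipose libraries, coloured by strain, with crosses for the 2 islet-led libraries and a dashed line at 5.5 between the marker sets. In DBA/2J Ifi203 lies at 5.91 to 7.19 in the 7 libraries right of the line and at 3.61 to 4.57 in the 17 left of it.

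How the members varied together was examined from deviations of each library from its group mean, over 72 libraries per tissue. In all, 93 relations were computed, between members and with the mean levels of 6 marker lists in liver and 8 in soleus, with permutation p values (100000 resamples) adjusted over them. Each adjusted p given with them is that of r, unless rho is named. No value is given for adipose tissue, because its libraries fall into separate sets. In soleus Ifi204, Ifi205 and Ifi207 moved as a block. Ifi204 and Ifi207 had a Pearson r of 0.81 (rho 0.77), Ifi205 and Ifi207 an r of 0.81 (rho 0.82), and Ifi204 and Ifi205 an r of 0.74 (rho 0.75), each with an adjusted p = 0.00012. Without the 2 libraries farthest from the median the r values were 0.77, 0.78 and 0.70, and without the 21 libraries set apart 0.80, 0.83 and 0.74. Mnda joined that block at r = 0.66 with Ifi204, 0.63 with Ifi205 and 0.66 with Ifi207 (rho 0.56, 0.60 and 0.62). Mnda shares sequence windows with Ifi204 and Ifi205, and the part of shared reads in these values was not tested.
Mndal and Ifi203 had lower r values with these genes, and whether the r values differ was not tested. The DBA/2J libraries held 1 to 10 Mndal reads each in liver and 8 to 80 in soleus. The part of counting error in the r values of Mndal was not tested. Mndal had an r of 0.28 with Ifi204 (rho 0.24, adjusted p = 0.047), 0.18 with Ifi205 (rho 0.12, adjusted p = 0.26), 0.26 with Ifi207 (rho 0.17, adjusted p = 0.13) and 0.30 with Mnda (rho 0.25, adjusted p = 0.098). For Mndal with Ifi204 the adjusted p of rho was 0.13 and did not pass. For Ifi203 the r was 0.31 with Mnda (rho 0.29, adjusted p = 0.053) and 0.25 with Ifi204 (rho 0.17, adjusted p = 0.15). The r of Mndal with Ifi203 was 0.49 in soleus (rho 0.54, adjusted p = 0.0013), and 0.28 without the 21 libraries set apart. Ifi203 had an r of -0.03 with Ifi205 (rho -0.05, adjusted p = 0.91) and 0.09 with Ifi207 (rho 0.01, adjusted p = 0.67). In liver Ifi203 and Ifi204 had an r of 0.53 (rho 0.50, adjusted p = 0.00093), Ifi204 and Ifi207 one of 0.50 (rho 0.44, adjusted p = 0.0031) and Mndal and Ifi207 one of 0.08 (rho 0.24, adjusted p = 0.81).

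Mean levels of cell type markers varied with the members as well, those of macrophages and of other types. In soleus the r with macrophage markers was 0.63 for Ifi204 (rho 0.54), 0.54 for Ifi205 (rho 0.53), 0.53 for Ifi207 (rho 0.53) and for Mnda (rho 0.46), 0.52 for Mndal (rho 0.44) and 0.34 for Ifi203 (rho 0.25). In liver it was 0.57 for Ifi203 (rho 0.54) and Ifi204 (rho 0.56), 0.52 for Ifi207 (rho 0.54) and 0.34 for Mndal (rho 0.42). The adjusted p of r was 0.047 for Ifi203 in soleus and no higher than 0.014 for the others, and leaving out the 2 farthest libraries gave r values of 0.27 to 0.58 in soleus and 0.43 to 0.51 in liver. For Ifi203 in soleus the adjusted p of rho was 0.13. Ifi203 had a higher r with endothelial markers, of 0.60 in soleus (rho 0.52, adjusted p = 0.00052; 0.53 without the 2 farthest libraries) and 0.59 in liver (rho 0.54, adjusted p = 0.00012; 0.52 without them). Endothelial markers had an r of 0.49 with Ifi204 in liver (rho 0.46, adjusted p = 0.002), and monocyte and neutrophil markers one of 0.53 (rho 0.56, adjusted p = 0.00021). With these markers the r was 0.49 for Mndal in soleus (rho 0.40, adjusted p = 0.0019; 0.25 without the 21 libraries set apart), and in liver it was 0.43 for Ifi203 (rho 0.41, adjusted p = 0.0059) and for Ifi207 (rho 0.41, adjusted p = 0.0026). Ifi203 had an r of -0.34 with hepatocyte markers in liver (rho -0.41, adjusted p = 0.03) and of 0.05 with muscle fibre markers in soleus, where rho was -0.48 (adjusted p of rho 0.0016). Among all tested genes, the one whose deviations were most like those of Ifi203 in liver was Sp100, a nuclear body protein (r = 0.79). For Ifi204 it was the leukocyte tetraspanin Cd53 (0.70), for Ifi207 Ccdc88a (0.61) and for Mndal Rasgrp2 (0.50). In soleus it was Ets1 for Ifi203 (0.74), Cdo1 for Mndal (0.67), Tent5b for Mnda (0.67), and Ifi207 for both Ifi204 and Ifi205 (0.81). These likenesses are descriptions over 72 libraries that share depth and tissue make-up. The part of cell type content in the relations between members was not tested.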

How the data were processed

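RNA of 3 tissues was sequenced as single reads of 100 bases from stranded poly(A) libraries, per the labels' protocols. The submitters' processing notes name STAR 2.5.3a, edgeR and GRCm38; how reads matching several genes were counted is not stated in the labels. The authors deposited 1 table per tissue of log2 CPM per gene, and all values used here are on that scale. Undoing that scale gave whole reads for 100% of values below 2000 reads, to within 0.05 reads, with a prior of 0.25 reads in liver and 2 in soleus and adipose tissue, so fold changes of low genes depend on that prior.

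The 216 libraries used exclude 8 repeat liver libraries of 4 animals. Genes at a log2 CPM of 0 or more in at least 4 libraries were tested (12611, 13637 and 16541 genes) with limma 3.58.1 in R 4.3.3: means of 18 groups, 54 residual degrees of freedom, an intensity trend, and Benjamini-Hochberg adjustment over all genes of a tissue and contrast at 0.05. Strain contrasts average diets and days. Python 3.11.15 and scipy 1.17.1 served correlations and intervals. The number-range covariate is the range of animal numbers in the titles, which the labels do not call a batch. Fits were tested on simulated data. All 6 members were named, with every measured other PYHIN gene, up to 3 genes of smallest p from each further list and contrast, the 5 nearest genes on either side of the cluster, and the most alike genes by Pearson r. Members and lists were chosen with earlier results of these data known.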

Additional observations from a re-analysis of the deposited data

Results flagged for a closer look

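Single libraries lay far from the other 3 of their group in 25 of 288 sets of 4 libraries (8.68%), by Dixon's ratio of the gap to the nearest one to the whole range at its 95% critical value. Chance gives about 1 in 20. All values are log2 CPM. In adipose tissue the islet-led library of BALB/cJ on HFD at day 33 was low for Mnda (-1.85, against 2.88 to 3.55 in the others), Mndal (3.29, against 7.76 to 7.99), Ifi203 (3.37, against 7.74 to 7.90), Ifi204 (0.44, against 5.51 to 5.89), Ifi205 (-0.78, against 2.52 to 3.12) and Ifi207 (2.06, against 3.88 to 4.12). That of day 5 was low for Ifi207 (-0.045, against 4.18 to 4.81).

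In adipose tissue of DBA/2J on HFD at day 5, 1 library was low for Mndal (1.21, against 2.99 to 3.29) and Ifi203 (3.98, against 6.68 to 7.19), and a different one for Ifi205 (2.09, against 2.59 to 2.68). On RC at day 13, 1 library was high for Mndal (3.03, against 1.03 to 1.27) and Ifi203 (6.84, against 3.72 to 4.19). C57Bl/6J on RC at day 33 had 1 low Ifi203 value (5.86, against 7.91 to 8.29). These Mndal and Ifi203 values follow the B cell marker sets of the libraries. Ifi204 had a low value of 3.93 in DBA/2J on HFD at day 33 (others 4.99 to 5.03).

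In soleus of BALB/cJ on HFD at day 5, Mnda had a high value of 0.46 (others -1.01 to -0.78) and Ifi204 one of 3.21 (1.84 to 2.05), and Mndal had a low value of 2.68 (3.34 to 3.40) and Ifi203 one of 3.54 (4.42 to 4.54). Ifi203 was high at 4.96 in BALB/cJ on RC at day 13 (4.68 to 4.72), Ifi204 low at 0.88 in DBA/2J on RC at day 5 (2.12 to 2.35), and Ifi205 low at 0.18 in BALB/cJ on RC at day 5 (1.93 to 2.06). In liver Ifi203 was high at 2.54 in BALB/cJ on HFD at day 5 (1.18 to 1.38). Liver Ifi207 was low at -0.65 in DBA/2J on HFD at day 5 (1.01 to 1.28), low at 0.12 in DBA/2J on RC at day 5 (0.92 to 0.95) and high at 2.40 in C57Bl/6J on RC at day 5 (1.65 to 1.67).

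The diet difference of Ifi207 in soleus differed between strains by a test of the difference itself (limma F test, adjusted p = 0.0354), with values of -0.84 in BALB/cJ, 0.16 in DBA/2J and -0.16 in C57Bl/6J.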

How the results depend on the processing

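Apart from leaving out single animals, 1614 values were recomputed: 1526 kept their side of the threshold, 44 lost a call, 40 gained one and 4 turned sign, where a turn is counted only if one of the fits passed. Changes of sign without a call in either fit count as kept. With the fits that left out single animals included, these came to 246 values. Mndal was called in each of these settings for DBA/2J minus C57Bl/6J, at -5.97 to -5.28 in liver, -3.63 to -3.25 in soleus and -5.77 to -4.10 in adipose tissue. The turned values were those of Mnda with leukocyte covariates in soleus (BALB/cJ minus DBA/2J, -0.012) and adipose tissue (BALB/cJ minus C57Bl/6J, 0.066), and of Ifi207 in adipose tissue (BALB/cJ minus DBA/2J) with those covariates without the islet-led libraries (0.29) and in the low B cell set (0.52). The cause was not tested.

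Of the counts of called members, the liver test of diet between strains gave 1 with quantile normalisation, against 0. In soleus the day count was 1 with the stricter filter, number range or voom and 2 with quantile normalisation or leukocyte covariates, against 0, and both the diet count within strains and that of the difference between strains were 0 without the 21 libraries set apart, against 1 each. In adipose tissue the overall diet count was 1 with number range, against 0. The count of diet within strains was 1 with the replicate block and with leukocyte covariates without the islet-led libraries, and 0 with the covariates alone, without the islet-led libraries, within either B cell set or with only the strains compared, against 2. Leaving out 1 animal gave 11 to 12 strain calls in liver, 13 to 16 in soleus and 9 to 11 in adipose tissue. It gave 0 to 1 for diet within strains and for its difference in liver, and 1 to 3 and 0 to 1 in soleus. Overall diet and day in soleus gave 0 to 1 each, and diet within strains 0 to 2 in adipose tissue.

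Animals share only a number across groups: same-number pairs exceeded a correlation of 0.1 in 12 of 20 pairs in liver, 7 in soleus and 4 in adipose tissue. Each pair is an HFD and an RC animal of the same strain and day. The median r of same-number pairs was 0.13 in liver, against -0.01 for pairs of different numbers. These medians were 0.00 and -0.02 in soleus and -0.36 and 0.15 in adipose tissue. The replicate block pools a number over strains and days, so it does not model these pairs alone. With the number as replicate block, Ifi205 in BALB/cJ adipose tissue lost its diet call (-1.36 ± 0.35, adjusted p = 0.0821), and no other member changed its call. The planned edgeR settings were not run, because the tables hold log2 values; voom on recovered reads and the settings on islet-led libraries and B cell sets were chosen after seeing the data. Depth limits Mndal in DBA/2J liver to 1 to 10 reads per library.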

Other observations

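Other PYHIN genes were called for diet or day in soleus. Ifi209 was higher on HFD than on RC in BALB/cJ by 1.46 ± 0.44 (limma, adjusted p = 0.0219). Of these BALB/cJ libraries 7 of 12 on HFD and 2 of 12 on RC were among the 21 set apart, and without those 21 the difference was 0.33 ± 0.41 and not called (adjusted p = 0.721). With leukocyte markers as covariates it was 0.65 ± 0.29 (adjusted p = 0.159), and with voom 1.79 ± 0.62 (adjusted p = 0.0512). The pseudogene Ifi203-ps was higher at day 33 than at day 5 by 0.47 ± 0.15 (adjusted p = 0.0248), which was 0.39 ± 0.18 without the 21 libraries (adjusted p = 0.196) and 0.44 ± 0.16 with the covariates (adjusted p = 0.0565).

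In liver the summed level of muscle fibre markers ranged from 1.61 to 240 CPM in BALB/cJ, from 1.26 to 742 in DBA/2J and from 1.11 to 74.1 in C57Bl/6J, ranges that overlap. Of 5 markers 4 were called higher for DBA/2J minus C57Bl/6J, where 28.6% of all genes were. Their part in the liver values of the Ifi200 genes was not tested.

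Liver Mndal in BALB/cJ on HFD averaged 0.85 ± 0.70 at day 5, 2.41 ± 0.33 at day 13 and 2.14 ± 0.40 at day 33 (SD, n = 4 each). On RC it averaged 1.13 ± 0.47, 2.26 ± 0.32 and 1.56 ± 0.26 on those days. No test was run on days within this strain.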
